A study of Mus musculus with 8 samples.

Results

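Spermatocyte genes are represented here by 9 genes whose transcripts are first made, or made in quantity, when male germ cells pass through meiosis. The genes were chosen by name: Sycp1, Sycp3, Hspa2, Ldhc, Pgk2, Calm2, Ccna1, Clgn and Tex101. They are 9 of 10822 distinct feature names over the 5 tables of small RNA values, and not every table lists each of them. All 9 stood in the table of the MVH immunoprecipitate (IP), 8 in that of the supernatant, 6 in those of the pellet and of the ACR IP, and 2 in that of round spermatids.

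The study followed small RNA through the purification of the chromatoid body, a cytoplasmic granule of RNA and protein in haploid germ cells of the testis. Collagenase-dispersed cells of seminiferous tubules were fixed with formaldehyde and sonicated to give the lysate, whose centrifugation separated a supernatant from a pellet (pellet 1). After another sonication and a filter step, the material spun down again (pellet 2) was put on beads carrying antibodies against MVH (DDX4, the vasa protein of the mouse) or against acrosin (ACR), a protease of the acrosome, as the control. RNA of 19 to 33 nt was cut from a gel before libraries were made. All mice were C57BL/6 and at least 6 weeks old. The 8 libraries formed 7 groups: MVH IP had 2 libraries, and 1 library each stood for the lysate, the supernatant, pellet 1, pellet 2, the ACR IP and the sorted round spermatids. Round spermatids carried the label hetMIWI, MIWI being the PIWI protein of late spermatocytes and round spermatids; the labels give no more on that genotype, and the other samples carry no genotype label. The labels do not say whether animals were pooled.

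Meiosis in the male is served by genes that are silent or nearly silent elsewhere. Sycp1 and Sycp3 encode structural proteins of the synaptonemal complex, which holds paired chromosomes together. Ldhc and Pgk2 encode germ cell isozymes of glycolysis, and Pgk2 takes over from the X-linked Pgk1 while the X chromosome is silent. Hspa2 is an HSP70 chaperone of spermatocytes, and Clgn (calmegin) a chaperone of the endoplasmic reticulum. Tex101 is a surface protein of germ cells, Ccna1 is the germ line cyclin A, and Calm2 is 1 of the calmodulin genes, which are also used outside the germ line. Many of these transcripts persist into haploid cells. Small RNA assigned to such a gene can be fragments of its mRNA, PIWI-interacting RNA (piRNA) made from it, or reads that also match another locus, and the values below do not tell these apart.

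RNA of the selected lengths can match a related gene as well as the member itself, so the sequences that members share with other genes are given before the values. In GENCODE M21 transcripts (build GRCm38), every stretch of 33 nt, the longest RNA selected, was looked up in all other genes. Of the stretches of Hspa2, Ldhc, Pgk2, Ccna1 and Clgn, 0% were found in another gene. At 19 nt, the shortest RNA selected, the share was 3.19% for Hspa2, 1.55% for Ldhc, 1.12% for Pgk2, 0.713% for Ccna1 and 0.927% for Clgn. Exact identity with paralogs is thus short, but stretches that match with a mismatch were not looked up. The longest coding run that Hspa2 shares with Hspa1l, an HSP70 gene also used in the testis, is 32 nt. Ldhc and Ldha, the general lactate dehydrogenase A gene, share at most 20 nt. These runs are shown in capitals with 8 nt on each side in lower case, 5′ to 3′ on the transcript; Hspa2 lies at chr12:76404598-76404645 (plus strand, exon 2), and Hspa1l at chr17:34977054-34977101 (plus, exon 2), while the Ldhc run, on chromosome 7 like that of Ldha, crosses an exon junction.
Hspa2: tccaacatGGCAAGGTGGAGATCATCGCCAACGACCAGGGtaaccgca
Hspa1l: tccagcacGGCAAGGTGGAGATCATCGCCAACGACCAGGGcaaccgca
Ldhc: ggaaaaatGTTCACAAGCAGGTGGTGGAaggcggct
Ldha: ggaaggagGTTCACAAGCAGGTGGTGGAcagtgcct

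At 33 nt the other 4 members do share stretches with other genes. For Calm2, 21.7% of 33-nt stretches and 29.8% of 19-nt stretches occur in other genes, all of the former in the processed pseudogenes Gm7308, Gm15720 and Gm14480. Sycp1 shares 11.6% of its 33-nt stretches with its processed pseudogene Sycp1-ps1. Sycp3 shares 39.8% with Chpt1, a choline phosphotransferase gene that overlaps it on the opposite strand. Tex101 shares 0.974% (2.5% at 19 nt), at the start of its coding sequence, with 2 other protein-coding genes, BC049730 and Gm4763. The longest shared coding runs of Calm2 (110 nt, over several exons on chromosome 17) and Tex101 (33 nt) are shown in capitals, with Gm7308 from chr6:127282248-127282373 (minus), Tex101 from chr7:24670602-24670642 (minus, exon 2) and BC049730 from chr7:24710158-24710198 (plus, exon 2). A read from within such a run has no unique origin.
Calm2: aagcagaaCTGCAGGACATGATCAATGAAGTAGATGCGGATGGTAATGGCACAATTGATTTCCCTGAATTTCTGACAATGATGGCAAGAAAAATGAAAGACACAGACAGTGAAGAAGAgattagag
Gm7308: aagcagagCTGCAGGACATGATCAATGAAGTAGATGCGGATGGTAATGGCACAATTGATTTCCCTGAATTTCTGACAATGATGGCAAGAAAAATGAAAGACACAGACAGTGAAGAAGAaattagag
Tex101: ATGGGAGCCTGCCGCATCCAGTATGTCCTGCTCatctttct
BC049730: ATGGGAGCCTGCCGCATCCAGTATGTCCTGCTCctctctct

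The values are FPKM, fragment counts scaled to feature length and library size, 1 column per group, so a level can be set beside that of another gene in the same column. No test between groups was possible, and every difference compares libraries, with no replicate check. In the lysate column of the supernatant table, all 15 markers of round and late spermatids were listed, led by Prm1 at 167 FPKM. Of markers of other cells, 2 of 10 for spermatogonia were listed, 1 of 8 for Sertoli cells, 3 of 6 for Leydig cells (Insl3 at 13.6 FPKM) and 1 of 6 for blood, vessel wall and peritubular cells. In such bulk fractions, fewer cells of a type and less RNA per cell cannot be told apart.

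Ldhc carried the most small RNA of the members in the lysate, at 33.2 FPKM, with a 95% exact Poisson interval of 29.6 to 37.1 from 308 derived reads. That put it above 98.6% of the named genes of the table, which are those other than microRNA, small structured RNA, piRNA clusters and assembled transcripts. Next came Tex101 at 8.64 FPKM (6.62 to 11.1), Hspa2 at 7.75 (6.39 to 9.32), Calm2 at 7.73 (5.98 to 9.84), Clgn at 6.09 (4.99 to 7.37) and Pgk2 at 5.06 (3.85 to 6.53). Neighbours in that series of 5 have overlapping counting intervals, so the order of neighbours is not settled by the counts. The intervals at its ends, of Tex101 and Pgk2, do not overlap. Ldhc stood apart from all 5. The synaptonemal complex genes were lowest, Sycp1 at 1.56 FPKM (1.13 to 2.11, from 42.3 reads) and Sycp3 at 1.43 (0.715 to 2.56, from 10.7 reads). Their intervals overlap each other and no other member's. Ccna1 had no row in this table.

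The derived reads come from the authors' test statistics and are not always whole, and the intervals cover counting error only, since PCR copies are not independent molecules. The same lysate was scaled anew in each table: the pellet table's lysate values were 2.39 times those of the supernatant table for 99.6% of 2772 shared features, and the ACR IP table's most often 2.08 times. That factor held less generally, within 0.1% for 38.1% of 1746 shared features and within 2% for 64.8%. Of the level it gives, Pgk2 kept 100%, Ldhc 99.9%, Clgn 99.1%, Hspa2 99% and Tex101 98.8%, whereas Calm2 kept 83.6%. A level as low as that of Calm2, or lower, was kept by 12.5% of all shared features and by 11.3% of 1063 other named genes. Calm2 has the largest share of stretches in other genes of these 6, and the part of shared sequence in its level was not tested.

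**Figure D1:**
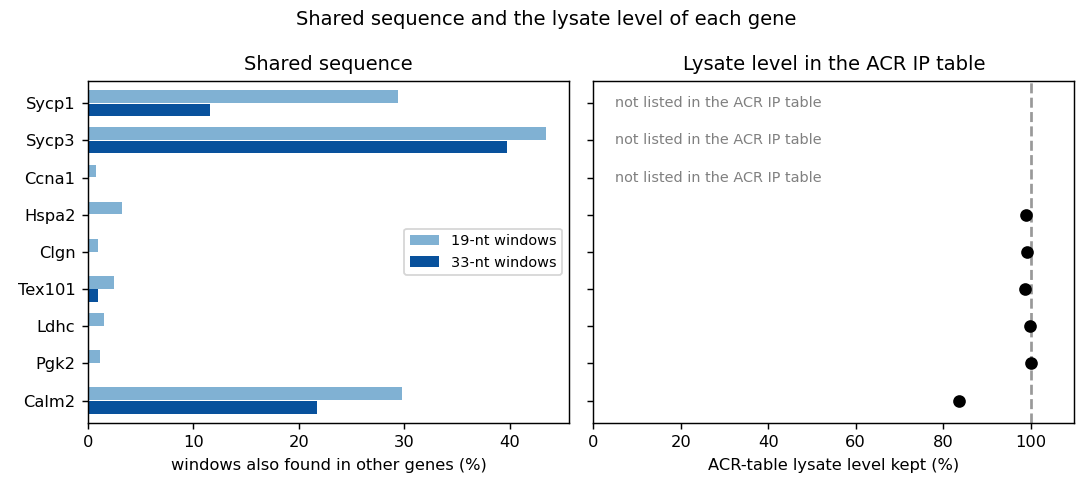
Left, percent of each gene's 19-nt (light bars) and 33-nt (dark bars) transcript stretches found in other genes of GENCODE M21. Right, each gene's lysate FPKM in the ACR IP table as percent of the level that the commonest factor, 2.08 times the supernatant table's lysate (38.1% of features within 0.1%), would give; Calm2 stands at 83.6% and the other 5 listed genes between 98.8% and 100%.

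No member lies in a piRNA cluster of the tables: 0 of 9 loci overlap any of the 196 listed clusters. By the mm9 coordinates of the files, the nearest is the short locus of Pgk2 (chromosome 17, 40343962 to 40345554), 359 kb from piRNA_cluster_177. Sycp3 (chromosome 10, 87922331 to 87966715) follows at 1837 kb from piRNA_cluster_111. Ldhc spans 54116632 to 54133512 on chromosome 7 and Hspa2 77505162 to 77507923 on chromosome 12. Tex101 lies at 25453030 to 25457069 on chromosome 7, Clgn at 85913789 to 85950728 on chromosome 8, Calm2 at 87832740 to 87846275 on chromosome 17, Sycp1 at 102622421 to 102740023 on chromosome 3 and Ccna1 at 54849390 to 54858977 on chromosome 3. The tables give 1 value per gene and do not say which part of the gene its reads lie in. Only the locus of Sycp3 is also the listed locus of another gene, Chpt1.

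The first comparison asked which small RNA remained soluble after centrifugation of the lysate. Small RNA on 6 of the 8 listed members was somewhat higher in the supernatant than in the lysate, and on 2 it was lower; over all features, 53% were higher by any size. None of the 8 reached a 2-fold difference in either direction, on the scale log2((supernatant FPKM + 1)/(lysate FPKM + 1)), which understates differences of low genes. Of all 4999 features tested, 7.16% passed that size upward and 5.42% downward. The median log2 ratio was 0.20 for the members, 0.02 for all features and 0.02 for 3532 other named genes. The middle 50% of those genes ran from -0.17 to 0.22.

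Of the synaptonemal complex pair, Sycp3 was at 3.61 FPKM in the supernatant and 1.43 in the lysate. Its log2 ratio of 0.92 was above that of 98.6% of other named genes. Without the added 1 FPKM the ratio was 1.33, with a counting SE of 0.47 and a 95% interval of 0.41 to 2.26. In the authors' deposited table its p-value was 0.00462 and its q-value 0.0524. The overlapping gene Chpt1 had no row in that table, where Sycp3 is the one gene listed at the locus. Sycp1, at 1.46 FPKM in the supernatant and 1.56 in the lysate, differed by less than its counting error, with a log2 ratio of -0.06 (-0.10 without the added 1 FPKM, SE 0.29).

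The metabolic isozymes lay close together. Ldhc was at 39.0 FPKM in the supernatant against 33.2 in the lysate, 118% of the lysate level. Its log2 ratio without the added 1 FPKM was 0.23, with a counting interval of 0.04 to 0.43 that leaves out 0. The q-value in the authors' deposited table was 0.159. Pgk2 was at 5.89 against 5.06 FPKM, 116% of the lysate, with an interval of -0.23 to 0.67. Both differences are small beside a doubling.

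Among chaperones, Hspa2 was at 9.17 FPKM in the supernatant and 7.75 in the lysate (interval -0.08 to 0.57 on the log2 scale). Clgn was at 6.40 and 6.09 FPKM (interval -0.27 to 0.42). Calm2 had 9.16 and 7.73 FPKM (interval -0.18 to 0.67). All of these intervals include 0. Tex101 was the lowest of the members by ratio, at 6.72 FPKM in the supernatant and 8.64 in the lysate, a log2 ratio of -0.32 that was above only 13.3% of named genes. Its interval, -0.85 to 0.13, also includes 0, and it does not overlap that of Sycp3. The authors' deposited table called 0 of the 8 members, against 2.53% of all features, and gave 0 of them a q-value below 0.05, against 8.59%.

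**Figure D2:**
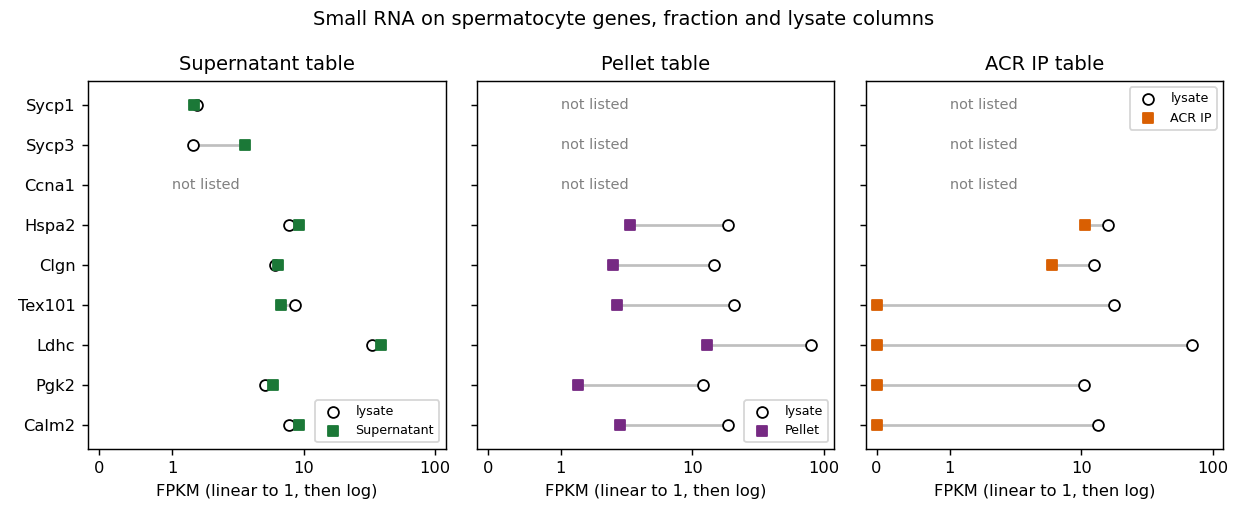
FPKM of each gene in the lysate (open circles) and in the supernatant, pellet or ACR IP column (filled squares), 1 panel per table, on an axis linear to 1 and logarithmic above. Supernatant and lysate lie close except for Sycp3, all 6 listed genes are lower in the pellet, and Ldhc, Pgk2, Calm2 and Tex101 are listed at 0 in the ACR IP.

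The other genes of meiosis, in lists set by name, also differed little between supernatant and lysate. Of the synaptonemal complex and axis list, 10 of 13 genes were listed and 0 reached 2-fold, with a median log2 ratio of 0.12; besides the members, Stag3, a meiotic cohesin subunit, was at 4.97 against 4.09 FPKM, Hormad2 at 2.65 against 2.72 and Syce1 at 2.46 against 1.99. Meiotic recombination genes were thinly covered, with 2 of 19 listed, Psmc3ip at 2.87 against 2.40 FPKM and Prdm9, the histone methyltransferase that places recombination sites, at 1.19 against 1.37. Of the meiotic cell cycle list, 5 of 16 were listed and 0 reached 2-fold. Its highest genes in the lysate were Cks2 at 4.76 against 3.15 FPKM, Fzr1 at 0.969 against 1.34 and Brdt, a testis bromodomain protein, at 1.11 against 1.33.

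Lists around the chaperones and isozymes were fuller. All 13 germ cell chaperones and fertilization proteins were listed, 0 reached 2-fold and the median was 0.15. Hsp90aa1 was at 9.97 against 9.12 FPKM, Dnajb3 at 9.66 against 8.04 and Hspa1l at 4.54 against 4. Of 11 listed germ cell isozymes of energy metabolism, 1 was at least 2-fold lower, the cytochrome c of testis, Cyct, at 1.76 against 4.76 FPKM (log2 ratio -1.06). Gapdhs, the sperm glyceraldehyde phosphate dehydrogenase, was at 16.9 against 18.6 FPKM, Pgam2 at 8.58 against 8.48 and Cox6b2 at 10.7 against 8.24. The spermatid markers had a median of 0.26 over 15 genes, beside 0.20 for the members.

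Of 10 somatic or general paralogs of the members, 5 had a row, and each had less small RNA in the lysate than its related member. Ldha was at 2.14 FPKM beside 33.2 for Ldhc, and Hspa8, the constitutive HSP70, at 1.18 beside 7.75 for Hspa2. Pgk1 had no row beside Pgk2. Calm3 was at 4.17 FPKM beside 7.73 for Calm2, and Canx (calnexin) at 2.85 beside 6.09 for Clgn. None of the 5 listed paralogs reached 2-fold in the supernatant, where Ldha had 3.49 FPKM, Hspa8 1.35, Calm3 5.36 and Canx 3.64.

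The second comparison set the pellet against the lysate and asked which small RNA went down with the granules. In the labels both pellet samples point to this table and its single pellet column, so it is the authors' pellet value with no n. Small RNA on all 6 listed members was lower in the pellet, at 11.2% to 18.3% of the lysate level, and all 6 were at least 2-fold lower. So were 86.5% of all 3005 features, and the share of the members says little beyond that background. The whole table is shifted: the median log2 ratio of all features was -2.20. Values were scaled anew in each table, and the part of that scaling in the shift was not tested. Sycp1, Sycp3 and Ccna1 had no row.

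Ldhc was at 12.8 FPKM in the pellet and 79.3 in the lysate, or 16.1%. Its counting interval on the log2 scale, without the added 1 FPKM, was -3.08 to -2.19. Pgk2 was at 1.35 and 12.1 FPKM, or 11.2%, the lowest share of the members, with a wide interval of -4.35 to -1.98. On the scale with 1 FPKM added, both isozymes lay below the middle of the named genes, Ldhc above 17.2% of them and Pgk2 above 20.4%. Without it, Ldhc at -2.63 was slightly above the named genes' median of -2.72, and Pgk2 at -3.16 was below it.

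Hspa2 was at 3.38 FPKM in the pellet and 18.5 in the lysate, or 18.3%, the highest share (interval -3.07 to -1.84). The other chaperone, Clgn, was at 2.50 and 14.6 FPKM, or 17.2% (interval -3.28 to -1.80). With 1 FPKM added, the chaperones stood nearer the middle than the isozymes, above 39.5% and 39.8% of named genes. Tex101 was at 2.68 and 20.6 FPKM, or 13% (interval -4.03 to -1.86). Calm2 was at 2.80 and 18.5 FPKM, or 15.1% (interval -3.71 to -1.73). All 6 intervals hold the values from -3.07 to -2.19 in common, so the order of the members in the pellet is within the error of the authors' statistic. Whether that statistic holds counting error alone in this table was not tested.

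Against the other named genes the members' place depended on the scale. With 1 FPKM added, the members' median log2 ratio was -2.42 and that of 1893 named genes -2.01, with a middle 50% from -2.39 to -1.62. Without it, the medians were -2.68 for the members and -2.72 for the named genes, and the SD among the 6 members was 0.27. The added 1 FPKM pulls low genes toward 0, and the members are higher than most named genes in the lysate. On the scale without it, the median of named genes lies inside the counting interval of every listed member. In the authors' deposited table all 6 had a q-value below 0.05 (69.4% of all features had one and were lower), from 5.17e-07 for Pgk2 to 2.35e-14 for Hspa2 and a listed 0 for Ldhc. The call column of the authors' deposited table, which does not follow from that q-value alone, marked 1 of the 6 as lower, Ldhc, against 18.7% of features.

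**Figure D3:**
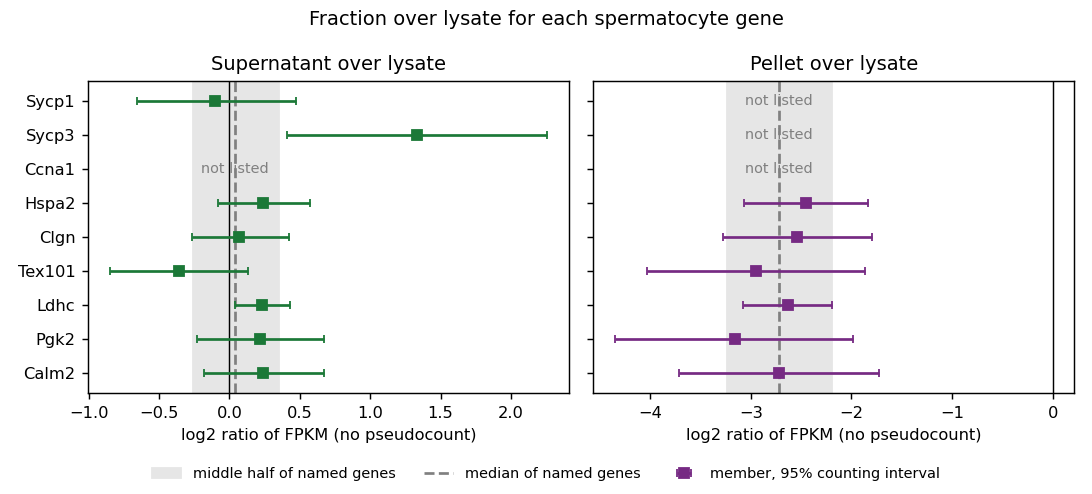
Log2 ratio of FPKM, without a pseudocount, of supernatant (left) and pellet (right) over lysate for each gene, with 95% counting intervals from the authors' test statistic. The dashed line and grey band are the median and middle 50% of other named genes (0.04, -0.26 to 0.35; and -2.72, -3.24 to -2.19); only Sycp3 in the supernatant has an interval outside its band.

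Related lists were lower in the pellet too. All 11 listed chaperones and fertilization proteins were at least 2-fold lower, with 1 of them, Ly6k, listed at 0 (8.47 FPKM in the lysate). All 10 listed isozymes were lower, with a median of -2.48, among them Gapdhs at 7.07 against 44.4 FPKM and Pgam2 at 1.12 against 20.3. The 3 listed genes of the synaptonemal complex and axis were lower: Stag3 at 0.835 against 9.77 FPKM, Hormad2 at 0.231 against 6.49 and Syce1 at 0.773 against 4.75. Of 2 recombination genes Psmc3ip was lower, at 0.651 against 5.74 FPKM. Spata22, chosen for mention after its values were seen, was higher, at 3.51 against 0.797 FPKM. The 4 listed paralogs were lower, Ldha the least, at 1.43 against 5.12 FPKM (log2 ratio -1.33), with Canx at 0.774 against 6.81 FPKM and Calm3 at 1.14 against 9.96.

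Markers of other cells moved with the members in this table. All 14 listed spermatid markers were at least 2-fold lower, with a median of -2.51 and a summed level of 131 FPKM in the pellet against 1263 in the lysate. The 1 listed Sertoli marker, Clu, and the 2 listed Leydig markers, Insl3 and Cyp17a1, were lower as well. Of 10 spermatogonial markers only Kit was listed, and it was higher, at 18.2 against 5.27 FPKM; Chpt1 at the Sycp3 locus was also higher, at 3.24 against 1.48. Their part in the members' values was not tested.

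The third comparison, of the ACR IP with the lysate, shows what the control antibody retained. Of the 6 listed members 2 had small RNA in the ACR IP, both chaperones. Hspa2 was at 10.7 FPKM in the ACR IP and 16.0 in the lysate, and Clgn at 5.98 and 12.6. Ldhc, Pgk2, Calm2 and Tex101 were listed at 0. Of all features 41.3% were at 0, and of the 406 other named genes with at least 10 FPKM in the lysate, as all 6 members have there, 60.6% were.

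The ACR IP library was shallow: 1 of its reads weighed as much as 10 lysate reads. Of 60 features above 0 with whole lysate reads, 22 had the value of 1 such read, 15 of 2 reads and 10 of 3, and 0 had less than 1. The value of Hspa2 corresponds to 7.51 reads, with an exact Poisson interval of 4.62 to 21.1 FPKM, and that of Clgn to 5 reads, with an interval of 1.94 to 14.0 FPKM. Both intervals include the lysate value. For the genes at 0, 3 reads, the limit that a count of 0 allows, would be 6.72 FPKM for Ldhc, 5.36 for Pgk2, 7.34 for Calm2 and 8.73 for Tex101. The lysate value of Ldhc, 69.0 FPKM, is 10.3 times its limit, so Ldhc was at least 10.3-fold lower in the ACR IP. For Tex101 (17.8 FPKM in the lysate) the bound is 2.03-fold, for Pgk2 (10.5) 1.97-fold and for Calm2 (13.5) 1.83-fold. Only for Ldhc is the deficit large against the depth.

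On the scale with 1 FPKM added, 4 of 6 members were at least 2-fold lower, the 4 at 0, beside 59% of 2539 features. The members' median was -3.69, that of all features -2.70 and that of named genes -0.23. With the genes at 0 set to their limit of 3 reads, the members' median was -0.90. The median of the list is thus set by how a 0 is treated.

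Of the fuller lists, 7 of 10 chaperones and fertilization proteins were at 0 in the ACR IP, Hsp90aa1 and Dnajb3 with 18.4 and 16.7 FPKM in the lysate among them, and so were 6 of 10 isozymes. Gapdhs was at 2.23 against 38.5 FPKM. Among paralogs, Ldha had 5.24 FPKM in the ACR IP against 4 in the lysate, Canx 0.613 against 5.89 and Calm3 0 against 8.67. Spermatid markers were at 0 for 11 of 14, Prm1 included, with 347 FPKM in the lysate, while Crem was at 199 against 3.91 FPKM and Kit at 54.6 against 1.65. The part of such markers in the members' values was not tested.

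Reads behind the members' values differ by column. In the supernatant they ran from 40.5 for Sycp3 to 544 for Ldhc. The pellet column holds values built from reads of 2 weights, 0.308 and 0.823 lysate reads, which allows only ranges: 60.3 to 161 reads for Ldhc, 25.1 to 67.2 for Hspa2 and 7.99 to 21.4 for Pgk2. No label says which pellet library gave which reads. The MVH IP column likewise mixes reads worth 23.6 and 46.5 lysate reads, so no member with derived reads rests on more than 10.7 there. For Ccna1 none could be derived.

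**Figure D4:**
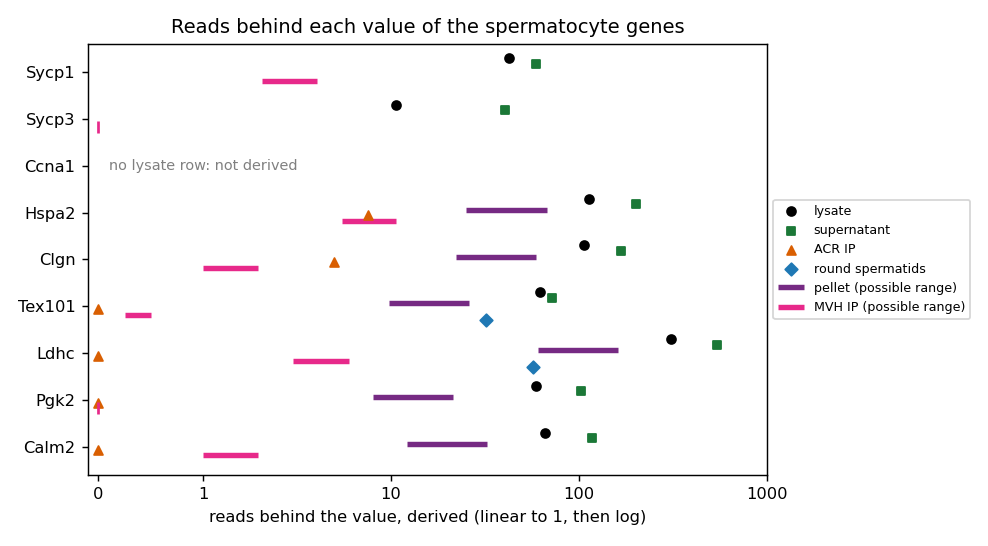
Derived reads behind each gene's value in each column, on an axis linear to 1 and logarithmic above; bars for the pellet and MVH IP span the range allowed by reads of 2 weights. Ldhc has the most reads in the lysate (308) and supernatant (544). All MVH IP values with derived reads rest on 10.7 reads or fewer, and for Ccna1 reads were not derived.

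Purification ends with the MVH IP, taken as the chromatoid body, and its table has no lysate column, so members were ranked within it. Of 6395 other named genes 35.6% were at 0, and their median was 0.889 FPKM. Hspa2 was highest of the members, at 17.4 FPKM, level with or above 93.3% of named genes, and rests on 5.46 to 10.7 reads. Ldhc followed at 15.2 FPKM (92.5%), from 3.03 to 5.97 reads. With so few reads these 2 do not differ beyond counting error.

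Calm2 was at 5.47 FPKM and Clgn at 2.67, each from 1 to 1.97 reads. Sycp1 was at 3.52 FPKM, from 2.05 to 4.04 reads. Tex101 was at 1.65 FPKM, which by the derivation is less than 1 read (0.254 to 0.5). Ccna1, listed in no other table, was at 0.723 FPKM, level with or above 47.8% of named genes. Sycp3 and Pgk2 were listed at 0, where 3 reads of the lighter weight would be 9.47 and 6.08 FPKM. Hspa2, Ldhc and Sycp1 exceed the level that 3 such reads would give, which for Sycp1 is 2.61 FPKM. Calm2, Clgn and Tex101 do not, and for Ccna1 reads could not be derived. If its reads were of the heavier weight, Sycp1 would rest on 2.05 reads, fewer than 3. The order among the lower members is not detectable at this depth.

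Of the synaptonemal complex and axis genes 12 of 13 were listed, 4 at 0, with a median of 0.408 FPKM and Hormad2 highest at 7.41. Of 13 chaperones and fertilization proteins 5 were at 0, and Dnajb3 had 11.9 FPKM. Of 11 isozymes 3 were at 0, Gapdhs among them, and Cox6b2 had 15.9 and Cyct 12.5 FPKM. Of the paralogs Calm3 was at 11.5 FPKM, and Ldha and Canx were at 0, while Ldhc stood at 15.2. Spermatid markers were at 0 for 9 of 15, with Oaz3 highest at 50.8 FPKM, and Kit was at 444 FPKM. Chpt1, at the locus of Sycp3, had 8.25 FPKM, and the reads behind that value were not derived.

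Sorted round spermatids follow meiosis directly, and their table is the shortest, with 1014 features. Ldhc and Tex101 were the members listed. Ldhc was at 18.3 FPKM, from 57 reads, with an exact Poisson interval of 13.9 to 23.7. Tex101 was at 13.4 FPKM, from 32 reads, with an interval of 9.15 to 18.9. The intervals overlap, whereas in the lysate the level of Ldhc was clear of that of Tex101. Among 347 other named genes, whose median was 13.0 FPKM, Ldhc stood above 63.4% and Tex101 above 52.2%. Among all 1014 features they stood above 31.2% and 26%. The other 7 members had no row, and a missing row is not a measured 0.

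The label of this library can hardly be checked from the table: of 15 spermatid markers only Prm1 was listed, at 26.8 FPKM, beside Kit at 25 of the spermatogonial markers. Of the lists of meiosis, Cks2 at 2.17 FPKM and Cox6b2 at 11.3 FPKM were the other genes listed.

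**Figure D5:**
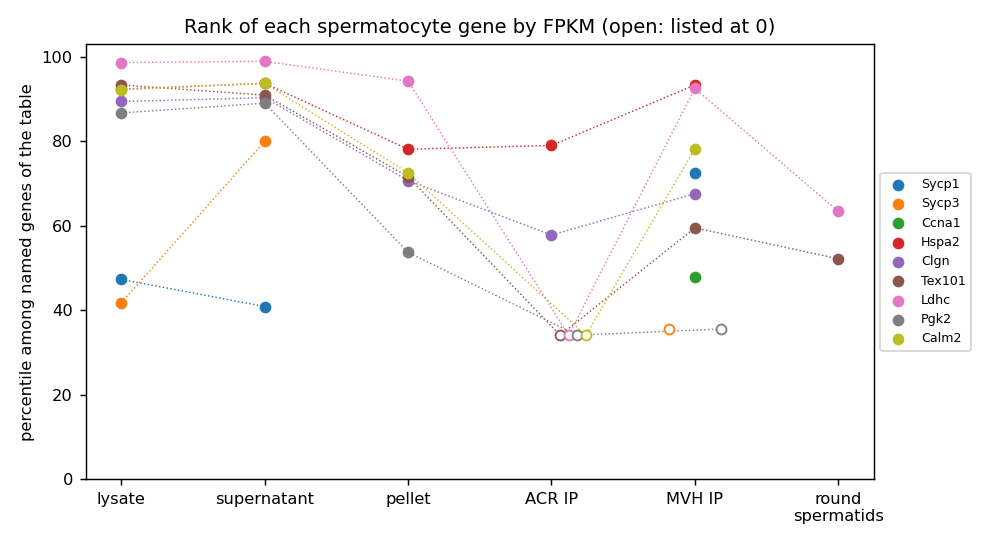
Percentile of each gene's FPKM among the other named genes of the same column; open circles are genes listed at 0, and dotted lines join the values of 1 gene. Ldhc stands at 98.6 in the lysate, 92.5 in the MVH IP and 63.4 in round spermatids. Hspa2 stands at 92.3 in the lysate and 93.3 in the MVH IP and is not listed in round spermatids. The named genes ranked differ by column (3619 in the lysate, 6395 in the MVH IP, 347 in round spermatids), so a step along a line is not a measured change.

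Finally, the profile of the members over the 3 lysate comparisons was matched to other named genes. The median of the 6 members in all 3 tables, each ratio taken relative to its table's median, was 0.18 in the supernatant, -0.22 in the pellet and -0.99 in the ACR IP. Of 1023 genes the 5 nearest by Euclidean distance were Bud31 (0.05), Asrgl1 (0.09), Calr (0.10), Atxn7l3b (0.15) and 2900010J23Rik (0.16). All 5 were at 0 in the ACR IP, which follows from the matching, since the members' ACR IP value is set by the 4 members at 0. The 3 ratios share the lysate library, and the likeness is a description over 3 values.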

How the data were processed

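The 8 libraries hold gel-selected RNA of 19 to 33 nt. The deposited values are FPKM, per the file headers of the round spermatid table and, elsewhere, from the column names; TopHat, Cuffdiff and mm9 stand in the submitters' processing notes. Their versions, the annotation and the handling of multiply matching reads are not given in the sources used here. Deposited with the supernatant and pellet values are the authors' p-values, q-values and test statistics (a score with no fixed range). A long RNA column of the MVH IP table belongs to no sample here, so this 1 column was not used. The members and all gene lists were chosen with earlier results of these data known.

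Ratios were log2((fraction + 1)/(lysate + 1)) within a table, over features with 1 FPKM or more in at least 1 of its columns, with a call at 2-fold. With 1 column per group no test was made. Rows of the same symbol and locus were summed. The counting SE is the log2 ratio over the authors' deposited statistic. Reads were derived from it and from the value shared by most single-read features; in the supernatant table a read was worth 0.667 lysate reads, and 879 of 4033 features (21.8%) had whole reads in both columns within 0.03, against 1.04% with that weight moved by 5%. The other features came out at fractions of reads. Whether they hold such fractions or depart from the counting formula assumed in the derivation was not tested. On simulated whole reads, with statistics made by the same counting formula, the derivation recovered lysate reads within 2% for 100% of 4429 features. That checks the arithmetic and cannot show that the formula holds for the authors' statistic. Depths rest on 107 features for the supernatant, 22 for the ACR IP and 12 for round spermatids. Text names all members, up to 3 other genes per list with the highest lysate FPKM, and paralogs, except items not reported here; Cyct and further genes named in the pellet, ACR IP, MVH IP and spermatid paragraphs were chosen after their values were seen. Versions were matplotlib 3.10.9, scipy 1.17.1, pandas 2.3.3, numpy 2.4.6 and Python 3.11.15, with GENCODE M21 transcripts. Alternatives were other pseudocounts, filters, centrings and ranking sets.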

Additional observations from a re-analysis of the deposited data

How the results depend on the processing

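No paired analysis was possible because each table has 1 column per group, and for the same reason no replicate could be left out. With a pseudocount of 0.1 FPKM, 1 member (Sycp3) was at least 2-fold higher in the supernatant, against 0 with 1 FPKM. In the pellet, the members' median went from -2.42 to -1.54 with a pseudocount of 5 FPKM. Centred on the median of all features, 0 members were at least 2-fold lower in the pellet, against 6, and the signs of Hspa2 and Clgn reversed, each to 0.04. In the ACR IP, the members' median of -3.69 became -6.91 with a pseudocount of 0.1 FPKM, -1.76 with 5 FPKM and -0.75 over the members above 0; centring made 2 members at least 2-fold higher, against 0. These shifts follow from how 0 and low values and the tables' medians enter the ratio. The other 26 recomputed counts and medians stayed within 1.5 times (counts) or counting error (medians). Of the results for single members, 63 stayed, 57 moved and 2 reversed. Percentiles in the MVH IP were lower among features at or above 1 FPKM than among all features. Hspa2 went from 89.1 to 74.1, Ldhc from 88.4 to 72.6, Sycp1 from 72.9 to 35.8 and Tex101 from 63.5 to 13.5. Depth limits the ACR IP and MVH IP most, where single reads decide whether a member is above 0.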
